A study of Rattus norvegicus with 6 samples.

Results

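Glul, Slc1a2, Cyp2e1, Axin2, Lgr5, Tbx3, Rnf43, Rhbg, Lect2 and Rgn, which mark hepatocytes around the central vein of the liver lobule, were measured in rat liver. Their probes were the spots other than controls whose accession belongs to one of these genes in RefSeq, which gave 17 probes for 10 of the 15284 genes on the array, out of 61657 probes in all. The tested animals were 3 male Sprague-Dawley (Crl:CD(SD)) rats dosed with 1000 mg/kg/day of phenolphthalein, an acid-base dye and former laxative, and the others were 3 males of the same stock given corn oil, the vehicle. All were 5 weeks old when bought and ate a basal diet. The labels give 9 weeks of dosing, whereas the design text speaks of 28 days. Liver RNA of each animal was hybridised to 1 Agilent 1-colour array, which measures the brightness of a Cy3-labelled copy of the RNA at each probe.

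Hepatocytes differ along the axis that blood takes through the lobule, from the portal triad to the central vein. Endothelial cells of the central vein secrete Wnt ligands and R-spondins, which stabilise beta-catenin in the hepatocytes next to them and hold those cells in the pericentral state. Pericentral hepatocytes capture ammonium as glutamine and carry much of the cytochrome P450 content of the liver, and the classical P450 inducers act most strongly there. The comparison therefore asked whether the Wnt-zoned genes differed between phenolphthalein and corn oil livers as the inducible P450s did. Whole liver was measured, so fewer cells of a type and less RNA per cell cannot be told apart in any value given here.

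No pericentral gene passed the test, while 5 of 16 measured genes of the inducible P450 list did, all of them Cyp2b genes. Of all 11434 genes, 0.0525% passed by their brightest probe. All 15 member probes that could be tested had a lower mean with phenolphthalein, by 0.03 to 0.50 log2 units. A lower mean was found for 46.6% of all tested probes. Cyp2b1, a phenobarbital-inducible P450, was 12.2-fold higher. The differences of the members were of the size of the spread between animals, and for 13 of the 15 probes the groups overlapped. Over all tested probes the groups did not overlap for 9.24% with phenolphthalein lower and for 11.8% with phenolphthalein higher.

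The probe sequences are not used here. To show the regulatory letters beside the values, the RefSeq windows from 250 bases before to 50 bases after the start of each gene (GRCr8) were searched for 4 words recognised by the TCF and LEF factors that carry the Wnt signal to DNA, namely CTTTGAA and CTTTGAT as well as CTTTGTA and also CTTTGTT, on both strands. None of the 4 is a part of another. The table holds 10 windows for 8 of the members, and Lgr5 and Tbx3 are named only. At least 1 word was found in 5 of these 10 windows, and in 17.1% of all 33469 windows of the same length. A match is a run of letters and not a shown binding site. The 4 windows below are those of the Wnt feedback gene Axin2, of Cyp2e1 and of Lect2, and the first of 2 for Glul. All 4 are among the 5 windows with a word, so they do not stand for the 10. Each is written 5′ to 3′ in the direction of the gene, with the words in capitals (ATCAAAG is CTTTGAT read on the other strand).
Glul, first start, chr13:68519250-68519549, + strand: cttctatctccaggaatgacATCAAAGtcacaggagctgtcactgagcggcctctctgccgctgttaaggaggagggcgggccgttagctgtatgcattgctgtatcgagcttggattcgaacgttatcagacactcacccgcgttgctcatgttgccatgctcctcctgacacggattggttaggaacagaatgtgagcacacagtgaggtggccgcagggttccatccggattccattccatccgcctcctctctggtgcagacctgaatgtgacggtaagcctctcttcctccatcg
Cyp2e1, chr1:205269717-205270016, + strand: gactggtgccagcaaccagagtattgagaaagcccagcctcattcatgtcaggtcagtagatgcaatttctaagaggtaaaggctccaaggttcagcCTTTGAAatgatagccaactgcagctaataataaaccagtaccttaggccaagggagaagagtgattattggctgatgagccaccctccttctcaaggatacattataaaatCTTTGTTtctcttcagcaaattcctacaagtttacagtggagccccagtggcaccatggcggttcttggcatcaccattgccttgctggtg
Axin2, chr10:94398535-94398834, + strand: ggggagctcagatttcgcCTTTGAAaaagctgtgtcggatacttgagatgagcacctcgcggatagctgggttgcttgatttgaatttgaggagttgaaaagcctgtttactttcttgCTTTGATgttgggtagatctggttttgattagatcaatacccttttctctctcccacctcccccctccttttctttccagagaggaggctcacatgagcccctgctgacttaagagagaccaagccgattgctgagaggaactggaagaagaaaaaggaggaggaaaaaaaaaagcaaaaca
Lect2, chr17:8049784-8050083, + strand: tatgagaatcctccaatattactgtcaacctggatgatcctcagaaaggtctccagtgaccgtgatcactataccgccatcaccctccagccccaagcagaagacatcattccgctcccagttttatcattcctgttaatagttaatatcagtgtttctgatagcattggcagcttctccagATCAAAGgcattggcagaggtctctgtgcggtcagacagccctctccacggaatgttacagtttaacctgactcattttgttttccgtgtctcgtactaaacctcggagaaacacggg
In the Axin2 window the words began 232 and 132 bases before the start. They began 153 and 41 bases before it in the Cyp2e1 window, 230 in the first Glul window and 68 in the Lect2 window. The fifth window with a word was the second one of Slc1a2. The second Glul window, the first of Slc1a2 and those of Rnf43, Rhbg and Rgn held none of the 4 words.

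Values are log2 of the processed signal relative to the 75th percentile of the array, so that 0 is the brightness of that percentile. Signals of different probes cannot be set against each other, and each probe was compared only with itself across animals. Phenolphthalein arrays lay on slide 2 and scan 2 and corn oil arrays on slide 1 and scan 1, and the effect of treatment cannot be told apart from that of slide or scan. The share of probes well above background was 62.1% to 65.1% per array, and the 75th percentile ran from 551 to 578 on phenolphthalein arrays and from 595 to 636 on corn oil arrays. Of the 61657 probes, 39411 exceeded background clearly on 3 or more of the 6 arrays and were tested with limma, adjusted over all of them by the method of Benjamini and Hochberg. All 15 tested member probes were well above background on 6 of 6 arrays. The other 2 probes, both of Lgr5, were not tested.

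Glutamine synthetase, coded by Glul, joins ammonium to glutamate and is the sharpest mark of the hepatocytes that border the central vein. Its brighter probe, A_44_P381069, read 3.04, 3.03 and 3.31 on phenolphthalein arrays 1 to 3, against 3.21, 3.77 and 3.87 on corn oil arrays 1 to 3. Corn oil replicates 2 and 3 lay above every phenolphthalein array, and corn oil replicate 1 lay among them. The difference was -0.49 ± 0.20 log2 units (SE, n = 3 per group), 0.712-fold, with a 95% interval of -0.97 to -0.01 and a limma adjusted p of 0.37. It was the member probe with the smallest p and the 1 of the 15 with an unadjusted p under 0.05, a level that 13.2% of all tested probes reached, 6.37% with a lower and 6.84% with a higher mean. The second probe, A_44_P458704, carries the same accession and read 2.63, 2.70 and 2.98 with phenolphthalein, against 2.76, 3.33 and 3.35 with corn oil. The animals stood in much the same order as with the first probe, and the difference was -0.37 ± 0.19 log2 units (SE; 95% interval -0.85 to 0.10; limma adjusted p = 0.461), or -0.57 without corn oil replicate 1. Leaving out corn oil replicate 1 moved the brighter probe to -0.69, and it still did not pass (limma adjusted p = 0.338). The brighter and the second probe were at -0.37 and -0.27 without corn oil replicate 3. Without corn oil replicate 2 they were at -0.42 and -0.28.

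Slc1a2, the glial glutamate transporter GLT-1, is also made by pericentral hepatocytes, where it brings in the glutamate that glutamine synthetase uses. Its probe A_44_P545654 read -0.46, -0.003 and -0.12 on the phenolphthalein arrays, against 0.07, 0.01 and 0.25 on the corn oil arrays. The groups did not overlap, though phenolphthalein replicate 2 and corn oil replicate 2 were nearly equal. The log2 fold change was -0.31 ± 0.15 (SE; 95% interval -0.67 to 0.05; limma adjusted p = 0.429), and it was -0.17 without phenolphthalein replicate 1. Another probe of the same accession, A_64_P033800, read -2.56, -2.17 and -1.93 with phenolphthalein and -2.38, -2.23 and -1.93 with corn oil. There the third replicates of both groups were equal to 2 decimals, and the log2 fold change was -0.04 ± 0.20 (SE; limma adjusted p = 0.946), with a sign that turned under quantile normalization, a median shift and normexp.

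The last Slc1a2 probe, A_64_P031123, belongs to the transcript NM_001035233, whereas both others belong to NM_017215. It read -0.79, -0.31 and -1.21 on the phenolphthalein arrays, against -0.27, -0.46 and -0.07 on the corn oil arrays. Phenolphthalein replicate 3 was the lowest, and the log2 fold change was -0.50 ± 0.24 (SE; 95% interval -1.10 to 0.10; limma adjusted p = 0.437). The spot lies in column 143 of the array, and on phenolphthalein replicate 3 this column had 6.98% of its bright spots over 1 log2 unit below the other arrays, against 0.762% on that whole array. With such columns masked, or without phenolphthalein replicate 3, the value was -0.28. The part of the column in the low reading was not tested.

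Cyp2e1, the P450 that oxidises ethanol and acetaminophen, read 8.33, 8.15 and 8.52 with phenolphthalein, against 8.33, 8.71 and 8.62 with corn oil. Phenolphthalein replicate 1 and corn oil replicate 1 were equal to 2 decimals, and corn oil replicates 2 and 3 lay above all other arrays. The log2 fold change was -0.22 ± 0.15 (SE; limma adjusted p = 0.548), and its 95% interval ran from -0.58 to 0.13. It was -0.13 with normexp or without phenolphthalein replicate 2, and -0.14 without corn oil replicate 2 or with a median shift.

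Rhbg, an ammonium transporter of the Rhesus family, read 0.98, 0.17 and 0.75 on the phenolphthalein arrays, against 0.80, 1.81 and 0.62 on the corn oil arrays. Corn oil replicate 2 stood far above the other corn oil animals. The log2 fold change was -0.45 ± 0.37 (SE; 95% interval -1.35 to 0.46; limma adjusted p = 0.633) and was -0.08 without that animal, -0.21 without phenolphthalein replicate 2 and -0.67 without corn oil replicate 3.

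Lect2, a protein that hepatocytes secrete into blood and that is a known beta-catenin target in mouse liver, read 5.02, 4.74 and 4.75 with phenolphthalein, against 4.96, 5.21 and 5.02 with corn oil. Phenolphthalein replicate 1 lay within the corn oil range and the other phenolphthalein arrays below it. Its log2 fold change of -0.22 ± 0.12 had the smallest standard error of the 15 probes (95% interval -0.52 to 0.07; limma adjusted p = 0.474). It was -0.15 without corn oil replicate 2, -0.14 with a median shift and -0.11 with normexp. Rgn, which codes for regucalcin, a calcium-binding gluconolactonase of the vitamin C pathway, read 5.69, 5.70 and 6.35 with phenolphthalein, against 5.82, 6.20 and 6.34 with corn oil. Phenolphthalein replicate 3 was the highest of the 6 arrays and the other phenolphthalein arrays were the lowest. The value was -0.21 ± 0.23 log2 units (SE; 95% interval -0.77 to 0.36; limma adjusted p = 0.727). It was -0.43 without phenolphthalein replicate 3 and -0.36 without corn oil replicate 1, about -0.10 without phenolphthalein replicate 1 or 2 or corn oil replicate 3, and -0.13 with a median shift.

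**Figure D1:**
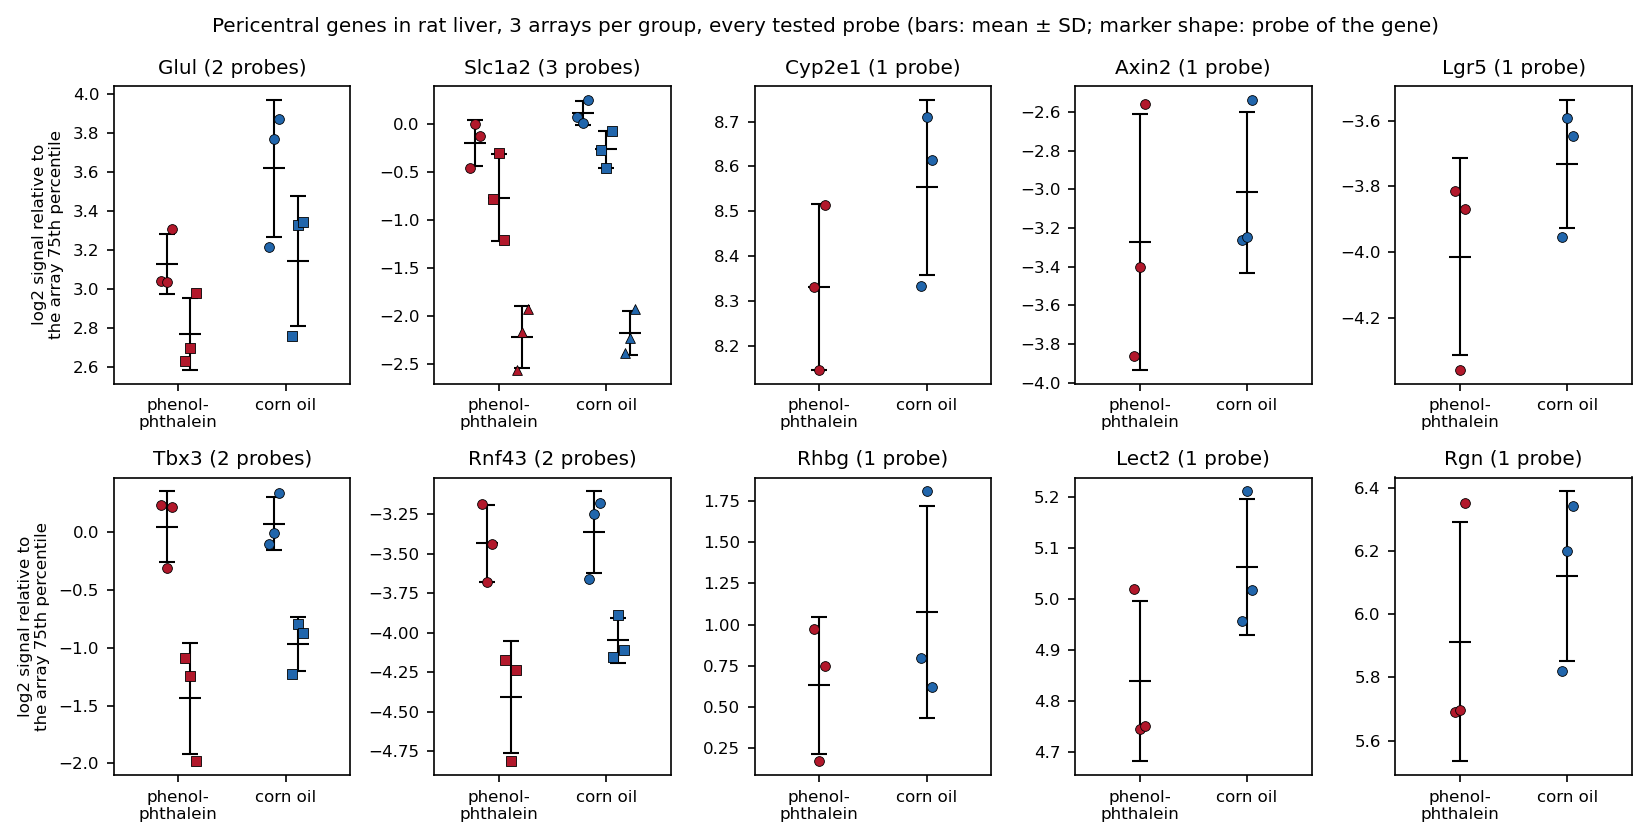
Each panel shows 1 gene, with the log2 signal relative to the 75th percentile of the array on the y axis, phenolphthalein in red on the left and corn oil in blue on the right. Points are arrays, bars are mean ± SD over 3 arrays, marker shapes are the different probes of a gene, and each panel has its own scale. The groups overlap for all probes shown except Slc1a2 A_44_P545654 and Rnf43 A_64_P045586.

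Among the genes of the Wnt pathway itself, Axin2 is a scaffold of the complex that destroys beta-catenin and is switched on by the signal it restrains. It read -3.86, -3.40 and -2.56 on the phenolphthalein arrays, against -3.26, -3.25 and -2.54 on the corn oil arrays. Replicate 3 was the highest in both groups, and the spread within each group was wide. The log2 fold change was -0.26 ± 0.38 (SE; 95% interval -1.18 to 0.66; limma adjusted p = 0.797), and it was 0.04 without phenolphthalein replicate 1, -0.02 without corn oil replicate 3, -0.61 without phenolphthalein replicate 3 and -0.10 with normexp.

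Lgr5, the R-spondin receptor that marks hepatocytes beside the central vein, was measured by 1 of its 3 probes. This probe, A_44_P492530, read -3.81, -4.36 and -3.87 with phenolphthalein, against -3.95, -3.59 and -3.65 with corn oil. Phenolphthalein replicate 2 was the lowest array and the others overlapped, and the log2 fold change was -0.28 ± 0.18 (SE; 95% interval -0.73 to 0.17; limma adjusted p = 0.545). It was -0.11 without phenolphthalein replicate 2, -0.18 with quantile normalization and -0.06 with normexp. Probe A_64_P003572 was well above background on 0 of 6 arrays. Probe A_64_P102796 was well above background on 0 of 3 phenolphthalein and 1 of 3 corn oil arrays, and no fold is given because the corn oil mean lay under the background bound.

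Rnf43 is a ubiquitin ligase that removes Wnt receptors from the cell surface and is itself a Wnt target. Its probe A_43_P23147 read -3.19, -3.68 and -3.44 on the phenolphthalein arrays, against -3.66, -3.25 and -3.18 on the corn oil arrays. The groups lay over each other (log2 fold change -0.07 ± 0.18, SE; limma adjusted p = 0.889), and the sign turned under quantile normalization and a median shift. Probe A_64_P045586 read -4.17, -4.82 and -4.24 with phenolphthalein, against -4.15, -3.89 and -4.11 with corn oil. Here the groups did not overlap, with phenolphthalein replicate 1 just under the lowest corn oil array, and the log2 fold change was -0.36 ± 0.19 (SE; limma adjusted p = 0.475). It was -0.16 without phenolphthalein replicate 2, -0.24 with quantile normalization and -0.10 with normexp. Groups that do not overlap, with phenolphthalein lower, were found for 2 of the 15 member probes and for 9.24% of all tested probes. The opposite order, with phenolphthalein higher, held for 0 of the 15 and for 11.8% of all.

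Tbx3 is a T-box transcription factor that beta-catenin switches on in mouse liver. Its probe A_44_P222030 read 0.24, -0.31 and 0.22 with phenolphthalein, against -0.10, -0.01 and 0.34 with corn oil, and the groups lay over each other (log2 fold change -0.03 ± 0.19, SE; limma adjusted p = 0.963). The sign of this value turned under normexp and a median shift. Probe A_64_P137823 read -1.09, -1.24 and -1.98 on the phenolphthalein arrays, against -1.23, -0.80 and -0.87 on the corn oil arrays. Phenolphthalein replicate 3 was again the low one, and the log2 fold change was -0.47 ± 0.26 (SE; 95% interval -1.11 to 0.17; limma adjusted p = 0.487). This spot lies in column 145, where 5.43% of bright spots on phenolphthalein replicate 3 were over 1 log2 unit low, and the value was -0.20 with such columns masked or without that array. The part of the column was not tested. The probes of Tbx3, of Slc1a2 and of Rnf43 thus gave differences of unlike size for the same gene.

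Over the 15 tested probes 0 passed at an adjusted p under 0.05 in limma and 1 had an unadjusted p under 0.05, where 0.0482% of the 39411 probes passed, 0.0457% as higher and 0.00254% as lower. The member adjusted p ran from 0.37 to 0.963. The mean was lower with phenolphthalein for 15 of 15 member probes and for 46.6% of all tested probes, and it was higher for 0 of 15 against 53.4%. Represented by their brightest probe, 10 of 10 genes had a lower mean (48.2% of 11434 genes did, and 51.8% had a higher one), and this was 9 with normexp or quantile normalization and 8 with a median shift. Their median log2 fold change was -0.24, against 0.01 over all genes. The members share animals and arrays and were not independent measures. The highest upper end of a 95% interval was that of Axin2, at 1.58-fold.

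**Figure D2:**
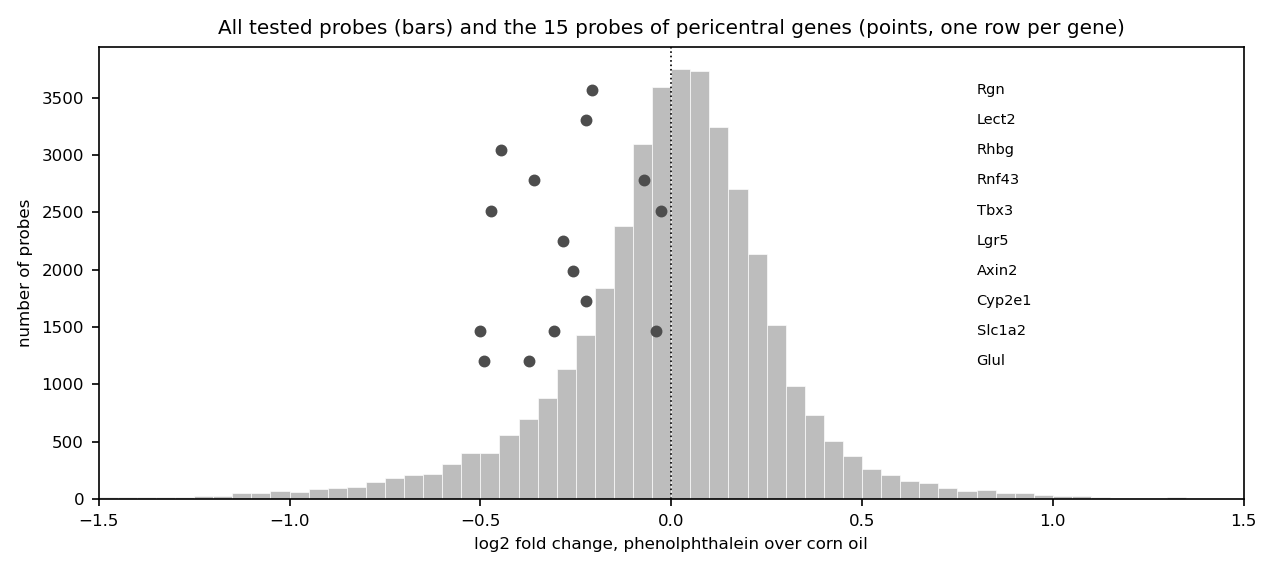
Bars count all tested probes by log2 fold change, phenolphthalein over corn oil, within 1.5 log2 units of 0, and each point is 1 of the 15 member probes, with a row for each gene and heights that carry no scale. All points lie left of 0, between -0.50 and -0.03, most of them on its lower flank, and 5.96% to 41.5% of all tested probes had a lower value than a given member probe.

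The genes of the inducible P450 list, chosen with earlier results of these data known, moved apart from the members. Of 16 measured genes of the inducible P450 list, 5 rose and 0 fell at an adjusted p under 0.05 in limma, while 0.0525% of the 11434 genes rose by their brightest probe, and 11 did not pass. The 5 were Cyp2b1, Cyp2b2, Cyp2b12, Cyp2b15 and Cyp2b21, close paralogs whose probes may share signal. Cyp2b1 read 8.36, 8.22 and 7.62 on the phenolphthalein arrays, against 4.41, 4.55 and 4.42 on the corn oil arrays, and every phenolphthalein array lay far above every corn oil array. Its log2 fold change was 3.61 ± 0.20 (SE, n = 3 per group; limma adjusted p = 0.0206). Without phenolphthalein replicate 3 Cyp2b1 still passed, and without any other array it did not, with values of 3.46 to 3.83. Cyp2b2 differed by 3.49 ± 0.21 log2 units (SE; limma adjusted p = 0.0206), and without any 1 of the 6 arrays it did not pass (limma adjusted p from 0.0703 to 0.159), with values of 3.31 to 3.68.

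The genes of the P450 list that did not pass were closer to the members in size. Cyp2c6v1, a phenobarbital-inducible Cyp2c form, differed by 0.97 ± 0.13 log2 units (SE; limma adjusted p = 0.125) and Cyp3a2 by 0.54 ± 0.09 (SE; limma adjusted p = 0.168). Por, the reductase that passes electrons to P450s, had 0.71 ± 0.27 (SE), Cyp3a9 0.70, Cyp1a2 0.47, Cyp2a1 0.36 and Cyp3a23-3a1 0.35. The values were 0.19 for Cyp3a62 and 0.17 for Cyp3a18, and below 0 they were -0.28 for Cyp2c7 and -0.10 for Cyp2b3. The list median was 0.62. All phenolphthalein arrays lay above all corn oil arrays for 10 of the 16 genes, against 12.2% of all genes. Cyp2b3 and Cyp2c7 thus had means on the same side as Cyp2e1.

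**Figure D3:**
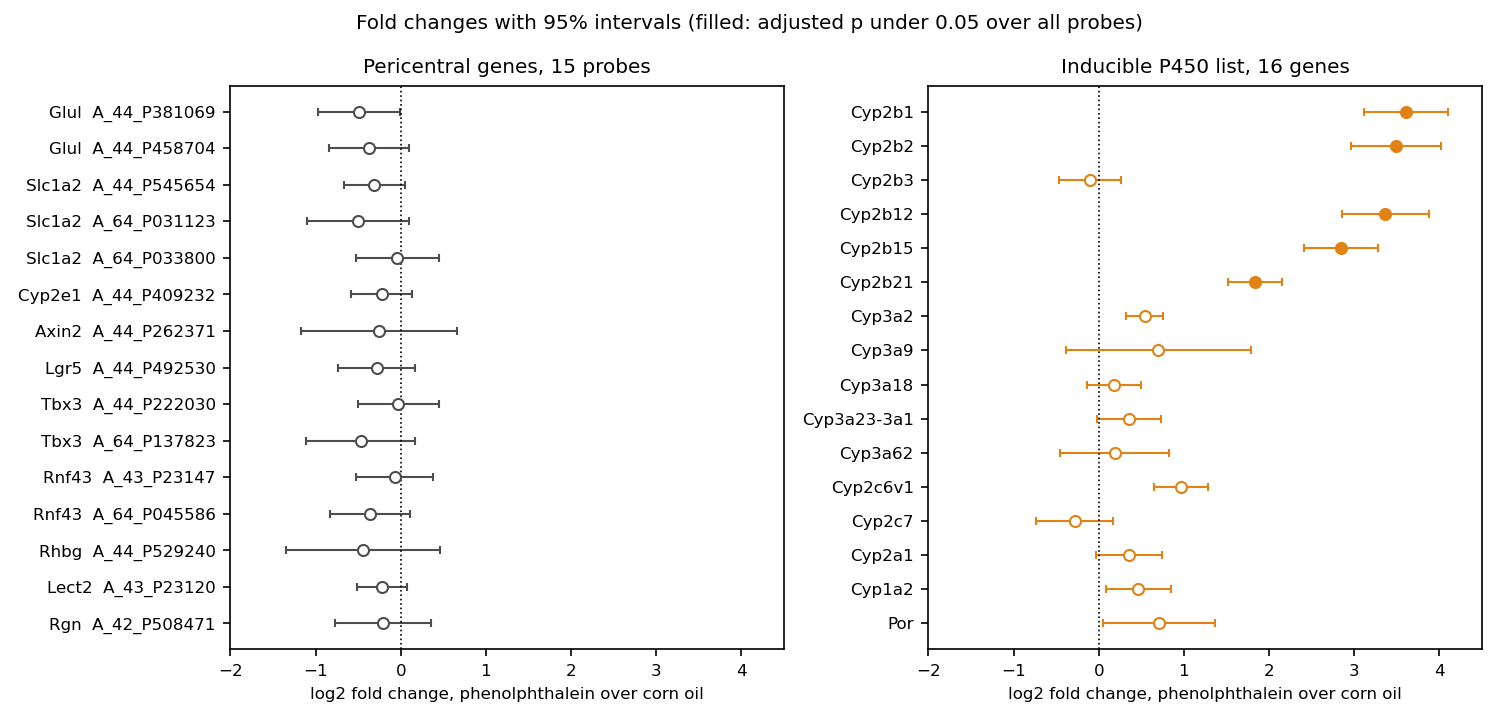
Points are log2 fold changes, phenolphthalein over corn oil, with 95% intervals, on the same x scale. On the left are the 15 probes of the pericentral genes. On the right is the brightest probe of each of the 16 measured genes of the inducible P450 list, which includes the reductase Por. The filled points, Cyp2b1, Cyp2b2, Cyp2b12, Cyp2b15 and Cyp2b21, have an adjusted p under 0.05 over all probes.

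Array by array, the list medians did not run in parallel. Each value is the median, over the genes of a list, of the deviation from the gene's mean over 6 arrays. For the inducible P450s it was 0.45, 0.27 and 0.29 on phenolphthalein arrays 1 to 3, against -0.30, -0.37 and -0.27 on corn oil arrays 1 to 3, so the groups stood apart. For the pericentral members it was -0.03, -0.31 and -0.02 on the phenolphthalein arrays, against -0.11, 0.22 and 0.25 on the corn oil arrays. Corn oil replicate 1 lay below phenolphthalein replicates 1 and 3 in this measure, and the animal with the highest P450 median, phenolphthalein replicate 1, was not the one with the lowest member median, which was phenolphthalein replicate 2. No correlation is given, because the P450 values fall into 2 separate clusters of 3 animals. The lists were chosen with earlier results of these data known, so the separation of the P450 medians is a description and no test.

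**Figure D4:**
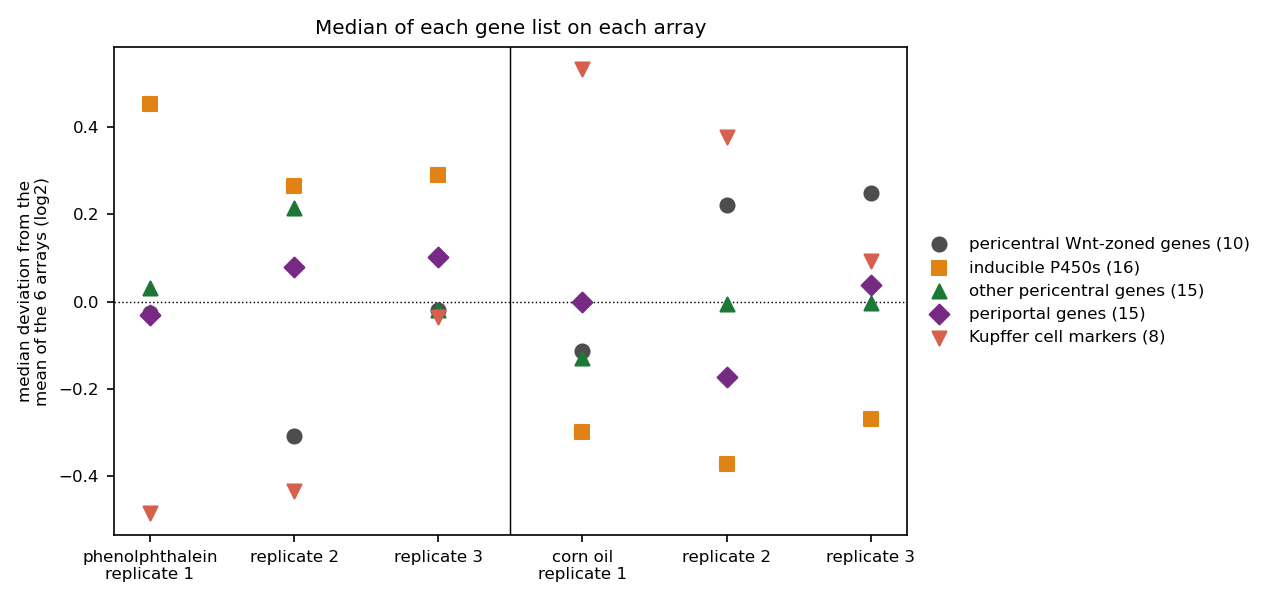
Each point is the median, over the genes of a list, of the log2 deviation from the gene's mean over the 6 arrays, with phenolphthalein arrays left of the line and corn oil arrays right of it. The P450 medians are 0.27 to 0.45 on phenolphthalein arrays and -0.37 to -0.27 on corn oil arrays. The pericentral medians, at -0.31 to -0.02 and -0.11 to 0.25, overlap. The lists were chosen with earlier results of these data known.

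The list of other pericentral genes held means on both sides of 0. Of its 15 measured genes, 0 passed in limma, 2 had an unadjusted p under 0.05, 9 had a higher and 6 a lower mean, with a median of 0.06 in log2 fold change. That median turned to -0.0032 without phenolphthalein replicate 2 and to -0.0099 with normexp, and it was 0.02 without corn oil replicate 1 and 0.14 with a median shift. Over all 11434 genes an unadjusted p under 0.05 was reached by 6.40% as higher and 7.75% as lower. The 3 with the smallest p were Gstm2, a glutathione transferase, at 0.37 ± 0.10 (SE), Cyp1a2, which is also on the P450 list, at 0.47 ± 0.16, and Aldh1a1, a retinal and aldehyde dehydrogenase, at 0.45 ± 0.21. Periportal genes, the counterpart at the other end of the lobule, had a higher mean for 13 of 15 measured genes, a median of 0.10, and 0 past the threshold in limma with 0 at an unadjusted p under 0.05. Among them the glutaminase Gls2 differed by 0.19 ± 0.10 log2 units (SE), the urea cycle enzyme Arg1 0.30 ± 0.19 and the lipid droplet protein Hsd17b13 -0.16 ± 0.11. The member median minus the periportal median was 0.01, -0.39 and -0.12 on the phenolphthalein arrays, against -0.11, 0.39 and 0.21 on the corn oil arrays. Corn oil replicate 1 lay at the level of phenolphthalein replicate 3 in that difference, and the groups overlapped.

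The ligands and receptors upstream of the members were measured too. Of 13 measured genes of that list 0 passed in limma, 4 had a higher and 9 a lower mean, with a median of -0.10 in log2 fold change. That median was -0.20 without phenolphthalein replicate 3, -0.19 without corn oil replicate 1, -0.18 without corn oil replicate 2, -0.02 with a median shift and -0.0019 with normexp. An unadjusted p under 0.05, which 6.40% of all genes reached as higher and 7.75% as lower, was found for 5 of the 13 genes. These were the co-receptor Lrp6 at -0.35 ± 0.09 (SE), the R-spondin receptor Lgr4 at 0.37 ± 0.11, Wls, which carries Wnt proteins to the cell surface, at -0.36 ± 0.13, the receptor Fzd1 at -0.95 ± 0.34 and the co-receptor Lrp5 at -0.21 ± 0.08. Lrp6 read 1.40, 1.53 and 1.59 with phenolphthalein, against 1.92, 1.87 and 1.78 with corn oil, and Lgr4 read 2.30, 2.34 and 2.51, against 1.86, 2.16 and 2.01. Both had groups that did not overlap, in opposite directions. In the list of 13 genes such groups were found for 4 with phenolphthalein lower and for 3 with phenolphthalein higher. The others were Fzd1, Lrp5 and Wls on the lower side and Wnt4 and Rspo3 on the higher side. Over all 11434 genes this held for 1256 as lower and 1397 as higher. The central vein signals Rspo3 and Wnt9b had log2 fold changes of 0.17 ± 0.10 and -0.16 ± 0.16 (SE), and no probe of Wnt2 was matched by name. The remaining values were 0.32 for Fzd4, 0.32 for Wnt4, -0.54 for Fzd5, -0.10 for Fzd8, -0.08 for Rspo1 and -0.05 for Fzd6.

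A further list held the beta-catenin complex and other intracellular parts of the pathway, target genes, and secreted inhibitors or their relatives. Of its 14 measured genes 0 passed in limma, and 3 had a higher and 11 a lower mean. An unadjusted p under 0.05 was found for 1 as higher and 2 as lower, against 6.40% and 7.75% of all genes. The median log2 fold change was -0.14, or -0.06 with a median shift and -0.07 with normexp. The secreted Wnt inhibitor Sfrp5 and the secreted protein Dkk3 had values of -0.39 ± 0.10 and -0.61 ± 0.25 (SE). The kinase Csnk1a1, which marks beta-catenin for destruction, had 0.25 ± 0.09. Ctnnb1, the gene of beta-catenin, had -0.11 ± 0.09, and the feedback gene Notum, a secreted enzyme that inactivates Wnt proteins, -0.18 ± 0.11.

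Markers of other liver cells were read beside these values. A summed signal adds unlike probes and is led by the brightest of a list, which is Kdr for endothelium and Clec4f for Kupffer cells. It is no measure of the amount of a cell type. Hepatocyte markers, which check the tissue, differed by -0.05 to 0.10 log2 units, with 0 of 6 past the threshold, 5 with a higher and 1 with a lower mean and a summed signal, in multiples of the 75th percentile, of 4404 to 4578 with phenolphthalein and 4231 to 4515 with corn oil. Among them the values were 0.10 for Fgb, 0.09 for Ttr and 0.06 for Tf. Kupffer cell markers had a lower mean for 8 of 8 genes, a median of -0.64 and 0 past the threshold in limma. All 8 had an unadjusted p under 0.05, which 7.75% of all genes reached as lower. Groups did not overlap, with phenolphthalein lower, for 7 of the 8, against 1256 of all 11434 genes. The summed signal of the Kupffer markers was 82.3 to 110 with phenolphthalein, against 118 to 164 with corn oil. The values were -1.45 for Marco, -0.63 for Cd163 and -0.51 for Csf1r. Array by array the Kupffer median deviation was -0.48, -0.43 and -0.04 on phenolphthalein arrays 1 to 3. It was 0.53, 0.38 and 0.09 on corn oil arrays 1 to 3.

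Endothelial markers, which do not tell the central vein from other vessels, had a lower mean for 6 of 6 measured genes, a median of -0.16 and 0 past the threshold, with 46.1 to 49.5 in summed signal with phenolphthalein and 48.7 to 49.8 with corn oil. The values were -0.29 for Cdh5, -0.30 for Thbd and -0.24 for Tek. Stellate cell markers had a lower mean for 7 of 8 genes and a median of -0.09, with 0 past the threshold and summed signals of 11.01 to 14.7 with phenolphthalein and 14.1 to 15.6 with corn oil. The values were 0.65 for Rgs5, -0.48 for Col1a1 and -0.51 for Dcn. Lymphocyte markers had a lower mean for 5 of 5 measured genes and a median of -0.38, with 0 past the threshold and summed signals of 2.06 to 2.30 with phenolphthalein and 2.80 to 3.30 with corn oil, and with -0.59 for Ptprc, -0.50 for Lck and -0.30 for Cd3d. The T cell marker Cd3e did not pass the filter, and the part of other cell types in the member values was not tested.

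Over the 6 arrays, the named genes whose brightest probe ran most like that of Glul were Fam20c, Glycam1 and Cacna1a, with Pearson correlations of 0.996, 0.995 and 0.986 among 11425 genes. Cyp2e1 came 120th for Glul, with 0.900, and Rgn 443rd, with 0.802, while Slc1a2 came 1257th, with 0.644, Axin2 1509th, with 0.607, and Lect2 1525th, with 0.605. For Cyp2e1 the nearest were Tnpo2, Pdia6 and Adam23, with 0.992, 0.991 and 0.984, and Glul came 99th, Rgn 235th, Lect2 1257th, Axin2 1983rd and Slc1a2 3495th. Lgr5, Tbx3, Rnf43 and Rhbg were not ranked. The correlations and ranks given are descriptions over 6 points that share 2 slides.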

How the data were processed

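Liver total RNA from 6 rats carried the Cy3 dye on Agilent arrays of 1 colour. Per the file headers, the deposited scanner output is spot intensity that Feature Extraction 10.7.1.1 made (10.7 in the submitters' processing notes), background-subtracted and not normalized between arrays. A comparison with the scanner output showed that the values the authors deposited are this intensity over 1 constant for each array (within 0.00501% of constant, and close to the 75th percentile), so its scale is linear and not centred. Its column medians were 0.0954, 0.0941 and 0.0959 for phenolphthalein and 0.0984, 0.101 and 0.102 for corn oil.

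Groups and replicate numbers come from the labels, with 1 array per animal, and precision is limited by how many arrays there are. The members and gene lists were chosen with earlier results of these data known. Probes were named by unversioned accession through RefSeq (assembly GRCr8, for names alone, since the design was annotated on rn4), which matched 27460 probes to 1 gene, 0 to several and 34197 to none. Log2 processed signal minus the 75th percentile of each array was tested with limma 3.58.1 (R 4.3.3, the data.table package in version 1.17.8), phenolphthalein minus corn oil, over the 39411 probes that exceeded background clearly on 3 or more of 6 arrays, with Benjamini-Hochberg adjustment at 0.05. Spots marked as outliers, 4 to 14 per array, were set missing, and no spot was saturated. A gene of a list is represented by its brightest probe. The script was tested on simulated data.

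Named were all members, the 3 genes with the smallest p of each other list, every measured gene of the inducible P450 and the Wnt ligand and receptor lists, genes of a list past the threshold, and 3 genes most like Glul and Cyp2e1. Ctnnb1 and Notum were added after their values were seen. Alternatives were the authors' values, normexp (offset 50, on the median spot signal), a median shift, quantile normalization, no filter, a filter on all 6 arrays, 1 probe or a mean per gene, a robust prior with an intensity trend, keeping marked spots, leaving out each array, and a block for the replicate number. Masking columns of the array in which 5% or more of bright spots were over 2, or over 1, log2 units low was added after the data were seen. The replicate numbers were not taken to pair the animals.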

Additional observations from a re-analysis of the deposited data

How the results depend on the processing

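With 3 animals per group, slide and treatment confounded and dim Wnt pathway probes, differences of the size seen in the members could not be told from the spread between animals. Over 19 alternatives 0 member probes passed, with a smallest limma adjusted p of 0.258 to 0.569, and of 275 values 261 kept their sign. The sign turned for Slc1a2 A_64_P033800 under normexp (0.021), quantile normalization (0.0021) and a median shift (0.039), for Tbx3 A_44_P222030 under normexp (0.016) and a median shift (0.051), and for Rnf43 A_43_P23147 under quantile normalization (0.0090) and a median shift (0.0072). Leaving out 1 array gave -0.19 to 0.13 for that Slc1a2 probe, -0.12 to 0.15 for Tbx3, -0.22 to 0.050 for Rnf43 and -0.61 to 0.037 for Axin2. The other member probes kept a lower mean in all alternatives run. Medians of the marker lists ran from -0.20 to 0.0033 for stellate cells (0.0033 without corn oil replicate 1), from -0.034 (quantile normalization) to 0.13 for hepatocytes, from -0.54 to -0.21 for lymphocytes, from -0.19 to -0.075 for endothelium and from -0.79 to -0.51 for Kupffer cells, and the periportal median from 0.043 to 0.18. The member median ran from -0.35 to -0.12, and the cause of these shifts was not tested. A median shift moved the median of all probes to 0.10, against 0.02.

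Over all probes, 18 were higher and 1 lower. There were 0 and 0 with no filter and with the replicate block, 6 higher with the brightest probe per gene and 5 higher with the mean per gene, where fewer features were tested, and 2 lower with the filter on all 6 arrays and with an intensity trend. Without 1 array 0 to 5 were higher and 0 to 1 lower, and the P450 median was 0.49 to 0.71. With the replicate block 0 member probes passed (smallest limma adjusted p = 0.405). The deviations of same-numbered animals from their group means correlated at -0.01, 0.02 and 0.01 over probes, so the numbers are not taken to pair them, and a call lost under the block is no weaker effect.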

Other observations

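Of 5 measured bile duct markers 0 passed in limma, and 4 had a higher and 1 a lower mean with phenolphthalein. Groups did not overlap, with phenolphthalein higher, for 3 of them, against 12.2% of all genes, and 3 had a higher mean at an unadjusted p under 0.05, against 6.40%. Their median was 0.33 in log2 fold change and ran from 0.23 without corn oil replicate 2 to 0.55 without phenolphthalein replicate 2. The summed signal in multiples of the 75th percentile was 2.08 to 2.15 with phenolphthalein, against 1.63 to 1.78 with corn oil. That sum is led by Epcam, the brightest of the 5. Spp1, which codes for the secreted protein osteopontin, had a log2 fold change of 0.92 ± 0.22 (SE; limma adjusted p = 0.224), the chloride channel Cftr one of 0.85 ± 0.17 (SE; limma adjusted p = 0.203) and the adhesion molecule Epcam one of 0.29 ± 0.09 (SE; limma adjusted p = 0.294). The keratins Krt7 and Krt19, given here after their values were seen so that all 5 are named, had 0.33 ± 0.28 and -0.09 ± 0.21 (SE).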
